A study of Mus musculus with 10 samples.

Results

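The genes described here are 33 enzymes and carriers of the mitochondrial tricarboxylic acid (TCA) cycle and of mitochondrial fatty acid oxidation, 14 of the cycle and 19 of the oxidation pathway. They were taken by symbol from a fixed list. All 33 were found among the 27151 genes of the normalised count table, and all 33 passed the filter on low values. Whole-tissue RNA of the tongue was sequenced from C57BL/6J mice that had received 4NQO, which causes oral tumours in rodents. In all, 6 libraries came from mice treated with SP2509, an inhibitor of the histone demethylase LSD1, and 4 libraries came from mice given vehicle. Both groups carried the 4NQO exposure, so neither is an unexposed tongue. The titles of the treated libraries read SP2509h. The labels used here state no dose, duration or age. In whole-tissue RNA, fewer cells of a type and less RNA per cell cannot be told apart.

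The TCA cycle oxidises acetyl-CoA in the mitochondrial matrix and passes the electrons to the respiratory chain. Fatty acid oxidation supplies part of that acetyl-CoA: long-chain fatty acids are activated to acyl-CoA, carried through the inner membrane as carnitine esters, and shortened in repeated rounds of dehydrogenation, hydration, dehydrogenation and cleavage. Both pathways are abundant in oxidative tissues, and the bulk of the tongue is striated muscle under a keratinised epithelium. Muscle and keratinocyte transcripts were both high here, with Acta1, skeletal muscle actin, at 18568 to 69611 and Krt5, a basal keratin, at 23815 to 38797 normalised reads in vehicle.

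Depth ran from 15748571 to 19375555 reads per library in SP2509 and from 9180844 to 14768955 in vehicle. The member with the fewest reads was Cpt1b, with 644 summed over the SP2509 libraries and 309 over the vehicle libraries. Mitochondrially encoded genes took 23.98% to 32.2% of the reads in SP2509 and 35.3% to 52.1% in vehicle. SP2509 replicates 1 and 2, and 4 and 5, were unusually close: among genes of 1000 to 5000 reads their spread was 3.49 and 3.72 times the Poisson expectation, against 11.2 to 55.8 times in the other pairs that do not hold replicate 6. SP2509 replicate 6 stood apart from every other SP2509 library in these genes, at 144 to 162 times. Among genes of 10 to 50 reads the sets were nearer to each other. There the 2 close pairs were at 2.405 and 3.51 times, other pairs without replicate 6 at 2.70 to 6.15 and pairs with it at 5.65 to 6.96. Results are therefore given over all 10 libraries, without SP2509 replicate 6, and with each close pair averaged to 1 unit (4 SP2509 units), and means ± SD of SP2509 are over those units.

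Over all 10 libraries the members leaned upwards with SP2509, and the succinyl-CoA ligase genes Suclg1 and Suclg2 were the members that passed the test. Their log2 fold changes were 1.02 ± 0.29 and 0.57 ± 0.13 (SE, limma adjusted p = 0.0469 and 0.0252, over 17088 genes). That is 2 of 33 members higher (6.06%), near the 4.95% of all tested genes that were higher. Lower were 0 members, where 4.15% of all tested genes were. In edgeR 1 member was higher and 0 lower, where 5.34% of all tested genes were higher and 3.42% lower. In DESeq2 6 members were higher and 0 lower, where 9.4% of all tested genes were higher and 8.16% lower. At an unadjusted p under 0.05 limma had 10 members (30.3%), near the 28.0% of all tested genes, and all 10 had positive fold changes. Fold changes are given as log2 of SP2509 over vehicle, with SE, here and below. They were positive for 29 of the 33. The median log2 fold change was 0.59 for the 14 cycle genes and 0.46 for the 19 oxidation genes, against 0.0214 over all tested genes. These 2 medians of members were 0.27 and 0.11 without SP2509 replicate 6 and vehicle replicate 1, a fit chosen after seeing the data. With the close pairs averaged none of the 17088 genes passed in limma, so no member did (lowest adjusted p of a member = 0.0796). At an unadjusted p under 0.05 that fit had 12 members (36.4%), where 21.3% of all tested genes were. The calls also depended on single libraries. Suclg2 lost its call when vehicle replicate 1, vehicle replicate 4, SP2509 replicate 3 or SP2509 replicate 5 was left out (limma adjusted p = 0.0801, 0.0652, 0.0540 and 0.0511). Suclg1 lost it when any single library other than SP2509 replicate 6 was left out (limma adjusted p up to 0.148, without vehicle replicate 1).

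SP2509 replicate 6 carried the highest value of all 10 libraries in 31 of the 33 members, where that holds for 21.1% of all tested genes. Its values were 0.755 to 5.06 times the median of SP2509 replicates 1 to 5, with a median of 2.85 times, against 1.02 times over all tested genes. It was at least 2 times that median in 29 members, where 10.5% of all tested genes were. The exceptions to the highest value were Cpt1a, where replicate 6 was the lowest library, and Etfb, where vehicle replicates 2 and 3 were higher. At the other end, vehicle replicate 1 was the lowest of all 10 libraries in 22 members, where that holds for 18.9% of all tested genes.

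**Figure D1:**
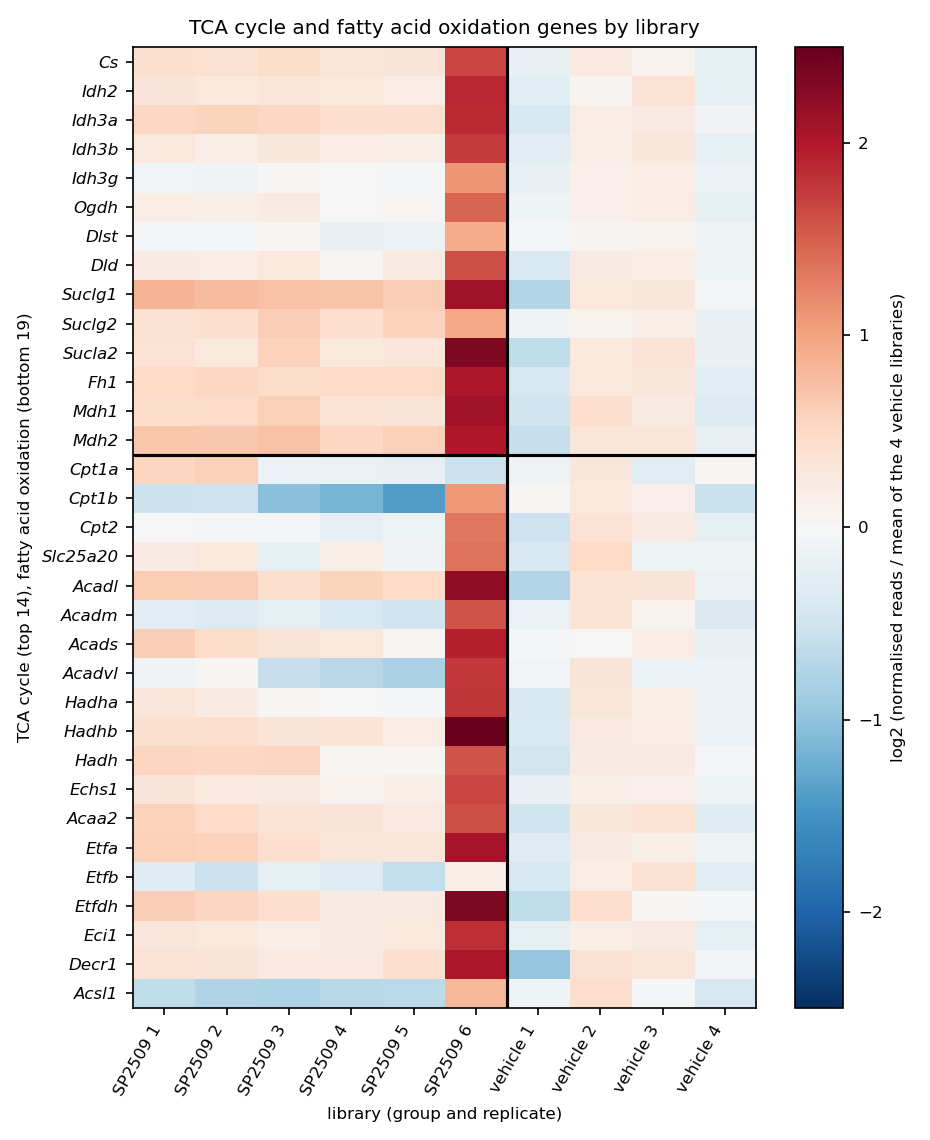
Each cell is 1 gene (rows, TCA cycle above and fatty acid oxidation below the line) in 1 library (columns, SP2509 left of the line and vehicle right of it), coloured by log2 of its normalised reads over the mean of the 4 vehicle libraries. SP2509 replicate 6 is the column in which 31 of 33 genes have their highest value, and Acsl1 and Cpt1b are among the rows that are blue in SP2509 replicates 1 to 5.

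Without SP2509 replicate 6 more members passed. Higher were Cs, Idh3a, Suclg1, Suclg2, Fh1 and Mdh2 of the cycle and Acadl and Etfa of the oxidation pathway, and lower were Acsl1 and Cpt1b. These were 8 of 33 members higher (24.2%, against 11.5% of all tested genes) and 2 lower (6.06%, against 8.71%), so the share of lower members was near the background. By pathway, 6 of 14 cycle genes were higher and none lower, and 2 of 19 oxidation genes were higher and 2 lower. The medians were 0.40 and 0.22, and the difference between the pathways was not tested. With the close pairs averaged as well, Suclg2 and Acsl1 passed in the same directions, where 4.5% of all tested genes were higher and 3.33% lower.

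**Figure D2:**
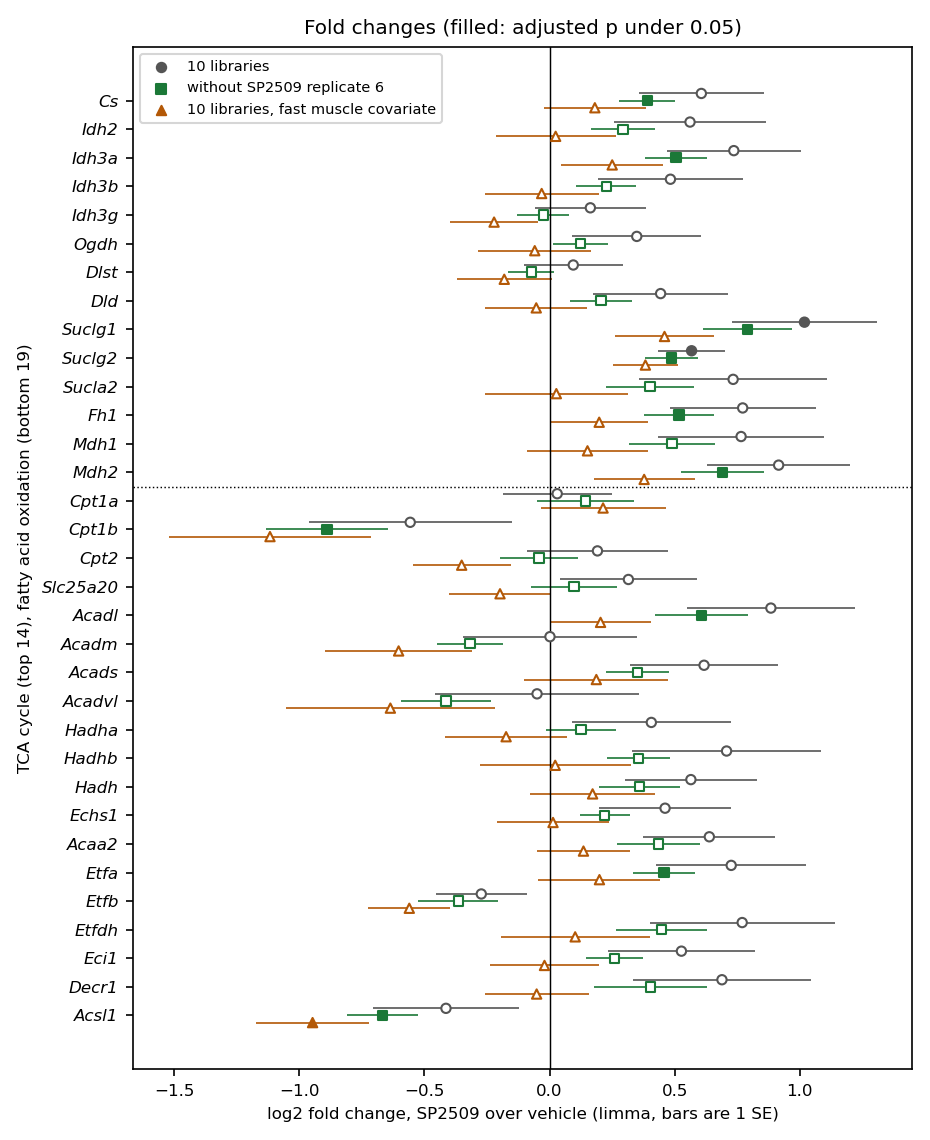
Points are limma log2 fold changes of SP2509 over vehicle with bars of 1 SE, one row per gene, from all 10 libraries (circles), without SP2509 replicate 6 (squares) and from all 10 libraries with the fast muscle markers as a covariate (triangles), filled where the adjusted p was under 0.05. The circles lie furthest right for most genes, while Acsl1 and Cpt1b, like Acadvl and Etfb, lie left of 0 in each of the 3 fits.

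Citrate synthase, Cs, condenses acetyl-CoA with oxaloacetate and opens the cycle. It had 3479, 3449, 3635, 3245, 3288 and 8407 normalised reads in SP2509 replicates 1 to 6, against 2323, 3131, 2814 and 2256 in vehicle replicates 1 to 4. Every SP2509 library lay above every vehicle library, and the 5 SP2509 libraries other than replicate 6 lay within 3245 to 3635. The log2 fold change was 0.61 ± 0.25 over 10 libraries (limma adjusted p = 0.140) and 0.39 ± 0.11 without replicate 6 (limma adjusted p = 0.0282, 0.103 with the pairs averaged).

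Isocitrate is oxidised by the NAD-dependent IDH3, a complex of a catalytic subunit from Idh3a and regulatory subunits from Idh3b and Idh3g, and by the NADP-dependent Idh2. The catalytic subunit gene had the largest difference of the 3. Idh3a stood at 2371, 2439, 2363, 2225, 2204 and 6067 normalised reads in SP2509 and 1253, 1881, 1929 and 1565 in vehicle, without overlap. Its fold change was 0.74 ± 0.27 over 10 libraries (limma adjusted p = 0.0973) and 0.51 ± 0.12 without replicate 6 (limma adjusted p = 0.0157, 0.0728 with the pairs averaged). Idh3b (0.23 without replicate 6), Idh3g (-0.0256) and Idh2 (0.29) did not pass, with limma adjusted p-values of 0.205, 0.889 and 0.126. Idh3g was level at 2308 to 2511 in SP2509 replicates 1 to 5 and 2139.8 to 2776 in vehicle, and reached 5232 in replicate 6.

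The 2-oxoglutarate dehydrogenase complex joins Ogdh, the decarboxylase, Dlst, the succinyl transferase, and Dld, the lipoamide dehydrogenase shared with the pyruvate dehydrogenase complex. None of the 3 passed in either fit. Ogdh had 4458, 4378, 4529.5, 3979, 4027 and 10831 in SP2509 and 3681, 4281, 4500.4 and 3313 in vehicle. Apart from replicate 6, these ranges overlapped. Dlst was at 0.0946 ± 0.20 over 10 libraries, the smallest of the 14 cycle genes, and at -0.0731 ± 0.0917 without replicate 6 (limma adjusted p = 0.795 and 0.611). Dld was at 0.44 ± 0.27 and 0.21 ± 0.12.

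Succinyl-CoA ligase makes the only nucleotide triphosphate formed directly in the cycle. Its alpha subunit, from Suclg1 (chromosome 6, 73248382 to 73276911, plus strand, GRCm38), pairs either with the GTP-forming beta subunit from Suclg2 (chromosome 6, 95473009 to 95718800, minus strand) or with the ATP-forming beta subunit from Sucla2. Suclg1 had 1502, 1432, 1381, 1359.6, 1283 and 3591 normalised reads in SP2509, against 504, 1004, 1008 and 814 in vehicle. The lowest SP2509 library exceeded the highest vehicle library. As means, Suclg1 was at 1940.1 ± 1102 in SP2509 (SD, n = 4 units) and 833 ± 237 in vehicle (SD, n = 4).

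Suclg2 had 495, 506, 583, 508, 565 and 741 in SP2509, against 356, 404, 428 and 332 in vehicle, again without overlap. Its value in replicate 6 was 1.46 times the median of the other SP2509 libraries. Without that library Suclg1 rose by 0.79 ± 0.18 and Suclg2 by 0.49 ± 0.11 on the log2 scale (limma adjusted p = 0.0106 and 0.00900). With the pairs averaged too, the limma adjusted p was 0.0559 for Suclg1 and 0.0438 for Suclg2.

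Sucla2 did not pass, at 0.73 ± 0.38 over 10 libraries and 0.40 ± 0.18 without replicate 6 (limma adjusted p = 0.225 and 0.130). Its value in replicate 6, 4364, was 4.10 times the median of the other SP2509 libraries. Per kilobase of merged exon, Sucla2 over Suclg2 was 2.18 to 2.58 in SP2509 replicates 1 to 5, 6.83 in replicate 6 and 1.80 to 2.98 in vehicle. The ratio of the ATP-forming to the GTP-forming subunit gene was thus far higher in replicate 6 than in any other library.

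**Figure D3:**
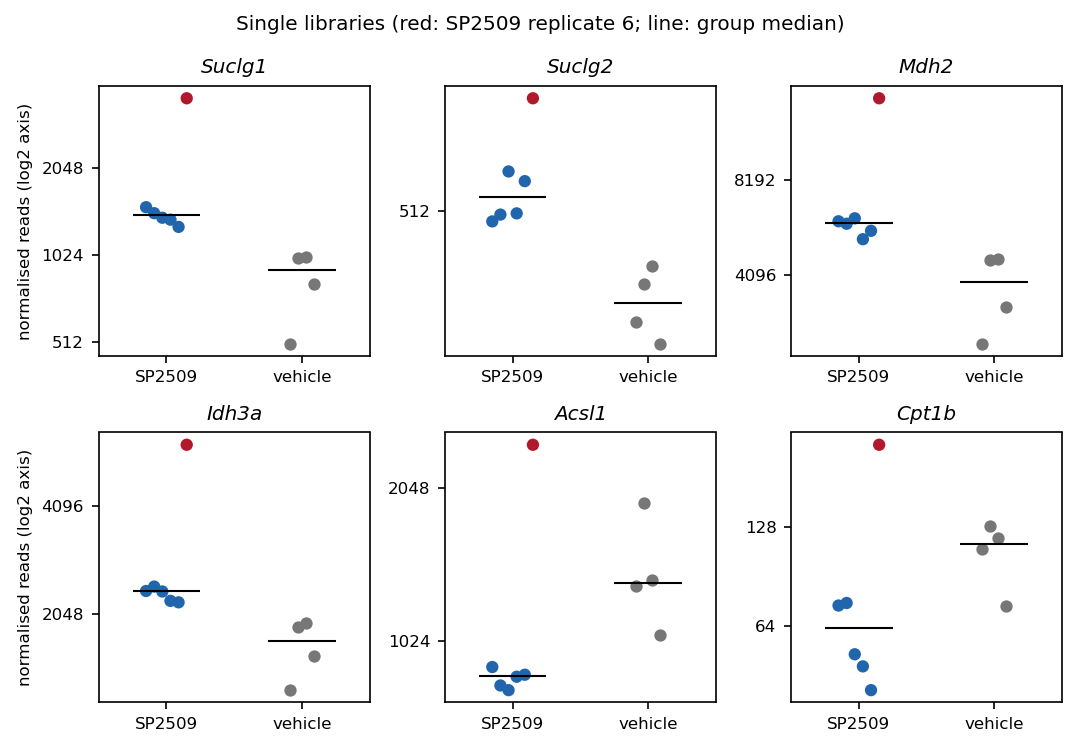
Normalised reads on a log2 axis for 6 genes, 1 point per library, with SP2509 left of vehicle, replicate 6 of SP2509 in red and a line at the group median. Suclg1, Suclg2, Mdh2 and Idh3a do not overlap between the groups, and in Acsl1 the other 5 SP2509 libraries lie at 821 to 911, below the vehicle range of 1051 to 1910.3.

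The regions upstream of 4 members are shown because these genes are the called pair Suclg1 and Suclg2, the member Acsl1 that moved the other way without replicate 6, and Etfdh, the carrier of the NRF1 motif. Each line gives bases of the 250 before a RefSeq start on GRCm38.p6, 5′ to 3′ on the gene's strand, in lower case. Where a coding transcript of GENCODE M21 begins inside them, the stretch ends there, which leaves 127 bases for Suclg1 and 154 for Etfdh. Capitals mark CCAAT on either strand (ATTGG where it lies on the other one) and the NRF1 motif. Acsl1 has 2 listed starts. The stretch at its second start lies inside the annotated span of Acsl1 in GENCODE M21. The Etfdh stretch likewise lies inside the annotated span of Etfdh (chromosome 3, 79603788 to 79629500, minus strand), not before it.
Suclg1 upstream region, chr6:73248255-73248381, plus strand: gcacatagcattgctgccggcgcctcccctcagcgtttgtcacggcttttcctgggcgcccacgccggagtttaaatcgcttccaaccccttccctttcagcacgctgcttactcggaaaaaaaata
Suclg2 upstream region, chr6:95718847-95719096, minus strand: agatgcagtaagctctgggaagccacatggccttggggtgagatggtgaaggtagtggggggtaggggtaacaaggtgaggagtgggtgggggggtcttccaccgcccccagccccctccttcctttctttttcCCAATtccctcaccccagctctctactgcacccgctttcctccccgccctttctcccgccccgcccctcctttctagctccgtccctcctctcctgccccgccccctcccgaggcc
Acsl1 first start upstream region, chr8:46470787-46471036, plus strand: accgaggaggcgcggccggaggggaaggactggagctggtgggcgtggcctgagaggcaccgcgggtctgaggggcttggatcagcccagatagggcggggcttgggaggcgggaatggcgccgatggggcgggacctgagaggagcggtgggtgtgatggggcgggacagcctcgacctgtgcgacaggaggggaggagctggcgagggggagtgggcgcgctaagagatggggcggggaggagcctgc
Acsl1 second start upstream region, chr8:46490716-46490965, plus strand: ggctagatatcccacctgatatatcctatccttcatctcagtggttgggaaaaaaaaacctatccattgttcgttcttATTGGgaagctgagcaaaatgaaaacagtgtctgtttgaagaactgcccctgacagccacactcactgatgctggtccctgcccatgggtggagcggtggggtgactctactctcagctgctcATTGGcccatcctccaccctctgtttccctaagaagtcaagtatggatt
Etfdh upstream region, chr3:79628864-79629017, minus strand: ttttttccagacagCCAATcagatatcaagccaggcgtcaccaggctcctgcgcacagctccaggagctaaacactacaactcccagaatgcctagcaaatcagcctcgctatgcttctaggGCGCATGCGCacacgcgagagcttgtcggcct

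A promoter window (250 bases before to 50 after the start) was matched by symbol for 29 of the 33 members, and Idh3a, Cpt1b, Acaa2 and Decr1 had no entry. Both strands were searched. The motif TNAAGGTCA, bound by estrogen-related receptors, was in 0 of the 29 members' windows and in 1.43% of genes of the table. Its short form AAGGTCA, which any such site also holds, was in 2 members, Ogdh and Acadm, and in 5.38% of genes. The PPAR motif, a direct repeat spaced by 1 base, was in 0 members and 0.0481% of genes, NRF1 in 1 member and 1.07%, and the E-box CACGTG in 1 member, Ogdh, and 8.09%. CCAAT, bound by NF-Y, was in 14 of 29 members (48.3%) and 41.1% of genes. In the stretches shown, Suclg2, Etfdh and the second start of Acsl1 hold it, while Suclg1 holds none of the motifs searched.

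Fumarase, Fh1, and the mitochondrial malate dehydrogenase, Mdh2, complete the cycle, and cytosolic Mdh1 is its partner in the malate-aspartate shuttle. Mdh2 had 6048, 5941, 6180.2, 5309, 5643 and 14803 normalised reads in SP2509, against 2483, 4562, 4597 and 3233 in vehicle. The groups did not overlap, and the fold change was 0.92 ± 0.29 over 10 libraries (limma adjusted p = 0.0629) and 0.69 ± 0.17 without replicate 6 (limma adjusted p = 0.0140, 0.0651 with the pairs averaged). Fh1 stood at 1264 to 1332 in SP2509 replicates 1 to 5 and 3729 in replicate 6, against 703 to 1118 in vehicle. It was at 0.77 ± 0.29 over 10 libraries and 0.52 ± 0.14 without replicate 6 (limma adjusted p = 0.110 and 0.0224). Mdh1 did not pass in either fit (limma adjusted p = 0.156 and 0.0629) and had 13991 in replicate 6, 3.09 times the median of the other SP2509 libraries. In all, 6 of 14 cycle genes did not overlap between the groups, all higher in SP2509, and 2 of 19 oxidation genes, Acadl and Etfa. Over all tested genes 6.54% lay entirely above and 5.11% entirely below.

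Long-chain fatty acids are activated by acyl-CoA synthetases, of which Acsl1 is the main form in muscle and fat. Acsl1 (chromosome 8, 46471037 to 46536051, plus strand) had 911, 838, 821, 872, 879.8 and 2487 normalised reads in SP2509 replicates 1 to 6, against 1311, 1910.3, 1350.0 and 1051 in vehicle. The first 5 SP2509 libraries lay below every vehicle library, and replicate 6 lay above every other library. Over 10 libraries the difference did not pass (-0.41 ± 0.29, limma adjusted p = 0.377). Without replicate 6 Acsl1 fell by 0.67 on the log2 scale (SE 0.14, limma adjusted p = 0.00791, 0.0452 with the pairs averaged). It was the 1 member entirely below vehicle in the 9 libraries, where 9% of all tested genes were.

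The acyl group then passes through the carnitine shuttle: Cpt1 in the outer membrane, the translocase Slc25a20, and Cpt2 in the inner membrane. Cpt1a is the form of liver and many other tissues and Cpt1b that of muscle. Cpt1a had 669.6, 695, 416, 409, 398 and 314 in SP2509, against 419, 556, 383 and 476 in vehicle. SP2509 replicates 1 and 2, a close pair, were the 2 highest libraries and replicate 6 was the lowest, and the fold change was 0.0305 ± 0.22 (limma adjusted p = 0.947).

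Cpt1b had 73.7, 75.1, 52.4, 48.1, 40.7 and 228 in SP2509, against 109, 129, 118 and 73.6 in vehicle. Replicate 6 held 4.35 times the median of the other SP2509 libraries. Without it Cpt1b fell by 0.89 (SE 0.24, limma adjusted p = 0.0244), although vehicle replicate 4 lay among the SP2509 values and the limma adjusted p was 0.0670 with the pairs averaged. Another annotated gene, Gm44502, covers 81.4% of the exon bases of Cpt1b on the same strand (GENCODE M21), so its reads are uncertain in their assignment.

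Slc25a20 was at 279 to 395 in SP2509 replicates 1 to 5 and 847 in replicate 6, against 248 to 462 in vehicle. Cpt2 had 681, 657, 663, 587, 620.2 and 1696 in SP2509 and 477, 871, 783 and 585 in vehicle. Its first 5 SP2509 libraries lay inside the vehicle range. Neither passed over 10 libraries (limma adjusted p = 0.485 and 0.697) or without replicate 6 (limma adjusted p = 0.726 and 0.877).

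The first step of each round is taken by acyl-CoA dehydrogenases that differ in chain length: Acadvl for very long, Acadl for long, Acadm for medium and Acads for short chains. Of the 4, Acadl passed without replicate 6. Acadl had 1868, 1835, 1629.7, 1753, 1689 and 5549.9 normalised reads in SP2509, against 727, 1516, 1491 and 1065 in vehicle, without overlap. It was at 0.88 ± 0.33 over 10 libraries (limma adjusted p = 0.109) and 0.61 ± 0.19 without replicate 6 (limma adjusted p = 0.0397, 0.142 with the pairs averaged).

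Acadvl had 588, 641, 419, 385, 358 and 2122 in SP2509, against 595, 779, 569 and 562 in vehicle. Its value in replicate 6 was 5.06 times the median of the other SP2509 libraries, the highest such ratio among the 33 members. SP2509 replicates 3 to 5 lay below every vehicle library and replicates 1 and 2 inside the vehicle range. The fold change was -0.0501 ± 0.41 with replicate 6 and -0.41 ± 0.18 without it (limma adjusted p = 0.954 and 0.125). Dvl2 covers 42.9% of the exon bases of Acadvl on the opposite strand, and whether the counting used strand is not given in these sources.

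Acadm stood at 1027 to 1231 in SP2509 replicates 1 to 5 and 4322 in replicate 6, against 1127 to 1827 in vehicle. It had a fold change of 0.00150 ± 0.35 over 10 libraries and -0.32 ± 0.13 without replicate 6 (limma adjusted p = 0.998 and 0.105). Acads ran from 347 to 512 in those 5 libraries, with 1283 in replicate 6 and 295 to 377 in vehicle, and was at 0.35 ± 0.13 without replicate 6 (limma adjusted p = 0.0682).

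The mitochondrial trifunctional protein, from Hadha and Hadhb, carries out the remaining steps for long chains, and Echs1, Hadh and Acaa2 do so for shorter ones as hydratase, dehydrogenase and thiolase. None of these 5 passed in either fit. Hadha had 2088, 1953, 1747, 1678, 1670.1 and 5874 in SP2509 and 1289, 2096, 1883 and 1525 in vehicle. Replicate 6 lay far above the rest, and the others overlapped with vehicle. Hadhb was at 0.71 ± 0.38 and 0.36 ± 0.13 without replicate 6, where its limma adjusted p was 0.0664. Echs1, Hadh and Acaa2 had fold changes of 0.46, 0.56 and 0.64 over 10 libraries and 0.22, 0.36 and 0.44 without replicate 6. Eci1 and Decr1, the isomerase and reductase that prepare unsaturated chains, were at 0.53 and 0.69 over 10 libraries and at 0.26 and 0.40 without replicate 6, and did not pass.

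Electrons from the acyl-CoA dehydrogenases pass through the electron transfer flavoprotein, a dimer of the Etfa and Etfb products, to its oxidoreductase from Etfdh. Etfa had 1175, 1173, 1045, 966, 967 and 3251 normalised reads in SP2509, against 624.9, 918, 869.9 and 715 in vehicle, without overlap. It was at 0.73 ± 0.30 over 10 libraries (limma adjusted p = 0.139) and passed without replicate 6 (0.46 ± 0.13, limma adjusted p = 0.0243, 0.0899 with the pairs averaged). Etfb had 790.3, 674, 843, 779.8, 636 and 1087 in SP2509, against 723, 1112, 1267 and 814 in vehicle, and was at -0.37 ± 0.16 without replicate 6 (limma adjusted p = 0.126). The genes of the dimer had fold changes of opposite sign. Other annotated genes on the same strand cover 58.2% of the exon bases of Etfb. Etfdh was at 389.9 to 522 in SP2509 replicates 1 to 5 and 1717 in replicate 6, against 219 to 456 in vehicle, and did not pass (limma adjusted p = 0.196 and 0.101).

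Ratios between partner genes do not depend on how libraries are scaled, and were described for 11 pairs within the IDH3, 2-oxoglutarate dehydrogenase, succinyl-CoA ligase, trifunctional and flavoprotein complexes. The pairs were chosen after the gene values were seen and were not tested. In 6 of the 11 the groups did not overlap, replicate 6 included, where 34.7% of all 528 pairs of members did not. Etfa over Etfb, per kilobase of merged exon, was 0.786 to 1.10 in SP2509 replicates 1 to 5, 1.90 in replicate 6 and 0.436 to 0.557 in vehicle. Idh3a over Idh3g was 0.486 to 0.563 in SP2509 replicates 1 to 5, 0.618 in replicate 6 and 0.312 to 0.381 in vehicle. Hadhb over Hadha was 0.851 to 1.01 in SP2509 replicates 1 to 5, 1.25 in replicate 6 and 0.758 to 0.809 in vehicle. Dlst over Dld went the other way, at 0.689 to 0.768 in SP2509 replicates 1 to 5, 0.554 in replicate 6 and 0.796 to 1.13 in vehicle. The others were Idh3b over Idh3g and Ogdh over Dlst, both higher in SP2509. Idh3g and Dlst each enter more than 1 of these ratios, so the ratios are not separate observations. Other genes on the same strand cover 58.2% of the exon bases of Etfb, so the ratio of Etfa over Etfb is uncertain.

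**Figure D4:**
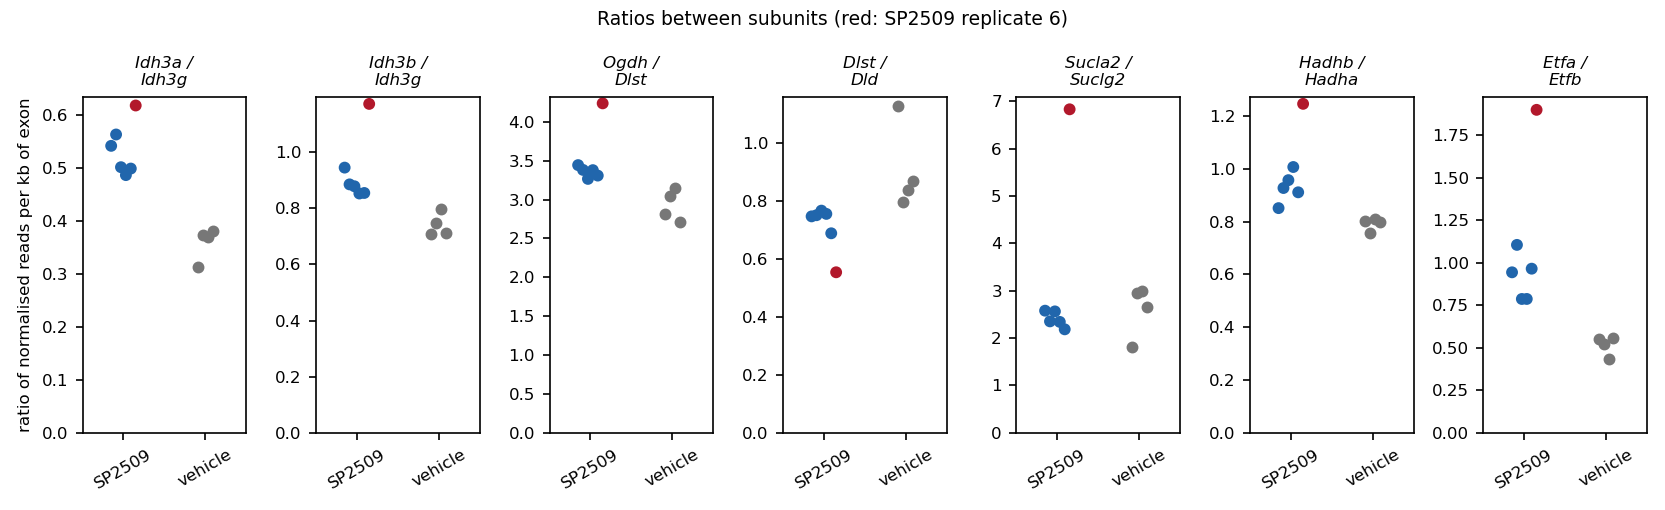
Ratios of normalised reads per kilobase of merged exon between genes of one complex, 1 point per library on axes that start at 0, with SP2509 left of vehicle and SP2509 replicate 6 in red. The 6 ratios whose groups do not overlap are shown with Sucla2 over Suclg2, where replicate 6 stands at 6.83 and every other library at 2.98 or less.

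Of the cell type markers, the sums of fast muscle fibres and of endothelium were highest in SP2509 replicate 6, the library in which most members were highest. Among 4 endothelium markers tested, 2 were highest there. The summed value of the 15 fast muscle fibre markers was 341530 to 445069 in SP2509 replicates 1 to 5 and 929210 in replicate 6, against 203384 to 421704 in vehicle. Of 14 tested, all 14 were highest in replicate 6 (Tnnc2, at 1.49 to 8.14 in SP2509 and 5.56 to 12.6 in vehicle, was under the filter). Their median ratio of replicate 6 to the other SP2509 libraries was 2.42 times, beside 2.58 times for the cycle genes and 3.09 times for the oxidation genes. Vehicle replicate 1, the lowest library in most members, had the lowest sum of fast muscle markers too. Slow fibre markers summed to 3064 to 4095 in SP2509 replicates 1 to 5 and 3976 in replicate 6, against 2047 to 2654 in vehicle, with the slow myosin gene Myh7 at 2.44 in replicate 6. Atp2a2, a calcium pump gene, made up most of that sum and was the 1 of 6 tested slow markers that passed, at 0.77 ± 0.14 (limma adjusted p = 0.0136), and the median of the 6 was 0.17.

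The 12 keratinocyte markers moved the opposite way in replicate 6, with a sum of 182231 to 377106 in SP2509 replicates 1 to 5 and 77188 in replicate 6, against 105976 to 147578 in vehicle. Adipocyte markers summed to 3056 to 5743 in SP2509 replicates 1 to 5 and 8595 in replicate 6, against 6266 to 8812 in vehicle, most of it from Plin4, a lipid droplet coat gene, at 2541 to 5099, 8009 and 5502 to 8150.4 in the same 3 sets. Of the 6 tested, 4 had positive fold changes, with a median of 1.48. Adipoq, the defining fat hormone gene, was at 2.62 to 143 in SP2509 replicates 1 to 5, 9.77 in replicate 6 and 0 to 10.8 in vehicle. Its high values were in SP2509 replicates 4 and 5. Brown fat markers summed to 318 to 509 in SP2509 replicates 1 to 5 and 479 in replicate 6, against 282 to 605 in vehicle. Those of fibroblasts came to 11444 to 12985 in SP2509 replicates 1 to 5 and 10829 in replicate 6, against 10665 to 12683 in vehicle. Lingual gland markers came to 211 to 413161 in SP2509 replicates 1 to 5 and 7713 in replicate 6, against 106 to 617 in vehicle, with the high sums in replicates 4 and 5. For endothelium the sum was 3695 to 4108 in SP2509 replicates 1 to 5 and 5162 in replicate 6, against 2747 to 4816 in vehicle, and for leukocytes 368 to 588 in SP2509 replicates 1 to 5 and 480.2 in replicate 6, against 380.1 to 669.5 in vehicle. Mitochondrially encoded genes took 28.6% of the reads of replicate 6, inside the range of the other SP2509 libraries. The part of these cell types in the members' differences was not tested beyond the covariates that follow.

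With the mean log2 value of the fast muscle markers as a covariate over all 10 libraries, the median fold change of the cycle genes was 0.0892 and that of the oxidation genes -0.0204. No member was then higher (4.93% of all tested genes were) and 1, Acsl1, was lower (3.08%). At an unadjusted p under 0.05 there were 5 members (15.2%), below the 26.9% of all tested genes. Acsl1 fell by 0.95 (SE 0.23, limma adjusted p = 0.0307). With the same covariate and without replicate 6, Suclg1 (0.54 ± 0.16, limma adjusted p = 0.0488) and Suclg2 (0.41 ± 0.12, limma adjusted p = 0.0468) were higher, where 7.1% of all tested genes were. Acsl1 fell there, where 4.62% of all tested genes were lower, by 0.84 (limma adjusted p = 0.00652). With the keratinocyte markers as a covariate instead, 22 members were higher over the 10 libraries, where 9.05% of all tested genes were, and 0 lower, where 6.31% were. The median fold changes then rose to 0.998 for the cycle genes and 0.861 for the oxidation genes. The markers themselves leaned upwards in SP2509, with median log2 fold changes of 0.80 (fast muscle) and 0.73 (keratinocyte) over 10 libraries. Of 14 tested fast muscle markers 0 passed, and of 12 keratinocyte markers 1 was higher and 0 lower. Of all tested genes 4.95% were higher and 4.15% lower. Either covariate could remove part of a treatment effect or add a difference that is not one, which was not tested.

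**Figure D5:**
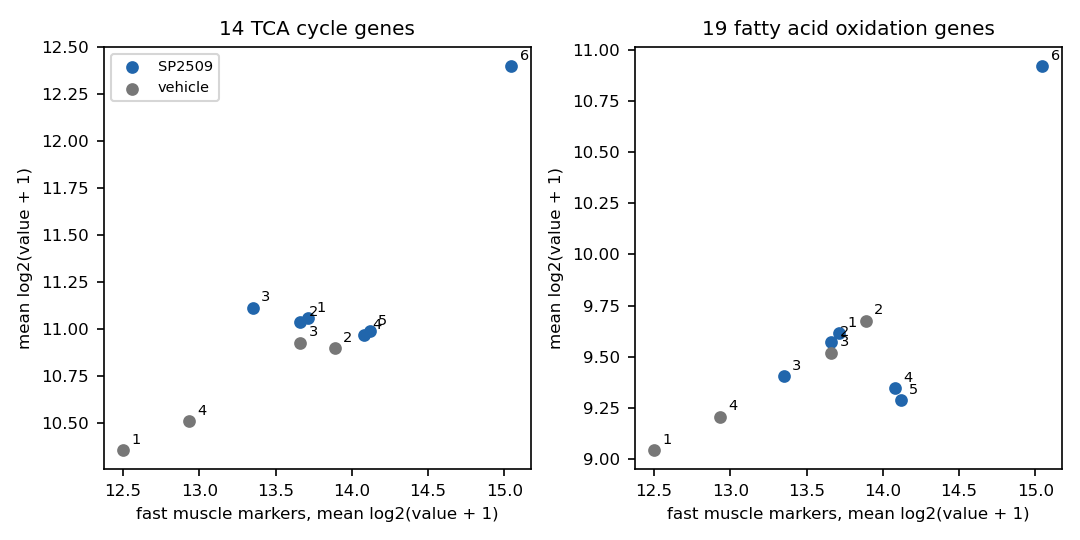
Each point is 1 library, numbered by replicate, with the mean log2(value + 1) of the 14 tested fast muscle markers on the horizontal axis and that of the 14 TCA cycle genes (left) or the 19 fatty acid oxidation genes (right) on the vertical axis. SP2509 replicate 6 is highest on both axes, at 12.4 for the cycle genes, where SP2509 replicates 1 to 5 span 11.0 to 11.1 and vehicle spans 10.4 to 10.9. For the oxidation genes it is at 10.9, and SP2509 replicates 1 to 5, at 9.29 to 9.61, lie inside the vehicle span of 9.04 to 9.68.

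Genes around the 2 pathways were taken from further lists. Of 16 other genes of the cycle and its feeding reactions, 1 was higher and 0 lower over 10 libraries (median log2 fold change 0.49). Beside this, 4.95% of all tested genes were higher and 4.15% lower. Got2, the mitochondrial aspartate aminotransferase of the malate-aspartate shuttle, rose by 0.98 ± 0.26 (SE, limma adjusted p = 0.0383, 0.103 with the pairs averaged). The next by p were Aco1, cytosolic aconitase (0.36 ± 0.11, limma adjusted p = 0.0616), and Sdhd, a membrane anchor of succinate dehydrogenase (0.82 ± 0.27, limma adjusted p = 0.0691). Sdha, the flavoprotein of succinate dehydrogenase, was at 0.74 ± 0.35 (limma adjusted p = 0.192). Without replicate 6, 5 of the 16 were higher and 0 lower: Aco1, Sdhd, Pdha1, Glud1 and Got2. Without that library 11.5% of all tested genes were higher and 8.71% lower. With the pairs averaged as well, 3 were higher, Sdhd, Pdha1 and Got2, and 0 lower (4.5% and 3.33% of all tested genes).

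Among 18 genes of fatty acid uptake, activation and carnitine supply, 0 were higher and 2 lower over 10 libraries. Of all tested genes, 4.95% were higher and 4.15% lower. Slc22a5, the plasma membrane carnitine transporter, had 314, 336, 221, 237, 227 and 282 normalised reads in SP2509 and 477, 464, 453 and 434 in vehicle. All 6 SP2509 libraries, replicate 6 included, lay below the vehicle libraries. It fell by 0.78 (SE 0.14, limma adjusted p = 0.0126, 0.0718 with the pairs averaged), and by 0.78 with the fast muscle covariate (limma adjusted p = 0.0233).

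Cpt1c, the brain-type member of the Cpt1 family, had 279, 269, 216, 269.6, 246 and 223 in SP2509 and 426, 465, 329 and 422 in vehicle, also without overlap. It fell by 0.71 (SE 0.13, limma adjusted p = 0.0133, 0.0718 with the pairs averaged). Acsl6 had the next smallest p (-0.90 ± 0.32, limma adjusted p = 0.0895). Without replicate 6, 5 of the 18 were lower (Slc27a1, Acsl6, Cpt1c, Slc22a5 and Acacb) and 2 higher (Fabp5 and Acsl5), beside 8.71% lower and 11.5% higher of all tested genes. With the pairs averaged as well, 3 were lower (Acsl6, Cpt1c and Slc22a5) and the same 2 higher. In that fit 3.33% of all tested genes were lower and 4.5% higher.

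Of 19 tested genes of other mitochondrial acyl-CoA and ketone reactions none passed over 10 libraries (limma), where 4.95% of all tested genes were higher and 4.15% lower. At an unadjusted p under 0.05 that fit had 4 of the 19, where 28.0% of all tested genes were. Hsd17b10, Oxct1 and Acot13 had the smallest p, at 0.38, 0.51 and 0.64. Without replicate 6, Acad10 and Ivd were lower and 0 higher (8.71% and 11.5% of all tested genes). With the pairs averaged as well, Acad10 was lower and 0 higher (3.33% and 4.5%). Of 14 genes of peroxisomal oxidation, 1 was higher and 0 lower over 10 libraries (4.95% and 4.15% of all tested genes). Scp2, a lipid transfer protein and thiolase, rose by 0.45 ± 0.13 (SE, limma adjusted p = 0.0470, 0.112 with the pairs averaged). Hsd17b4 (0.47 ± 0.15) and Acaa1b (-1.97 ± 0.64) came next and did not pass. Without replicate 6, Hsd17b4 and Scp2 were higher and 2 genes were lower (11.5% and 8.71% of all tested genes). With the pairs averaged as well, 0 were higher and 1 lower (4.5% and 3.33%).

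Of 21 regulators of these pathways and their targets, 1 was higher and 0 lower over 10 libraries (4.95% and 4.15% of all tested genes). Nrip1, a nuclear receptor corepressor of oxidative genes, rose by 0.54 ± 0.13 (SE, limma adjusted p = 0.0280, 0.0981 with the pairs averaged). It had 477, 399, 410.3, 429.7, 358 and 345 normalised reads in SP2509, against 330.0, 241, 253 and 286 in vehicle, so that every SP2509 library, replicate 6 included, was above vehicle. Ucp2 (0.48 ± 0.18) and Ppargc1b (-0.72 ± 0.30) had the next smallest p and did not pass. Ppara, the fatty acid receptor, was at 25.4 to 42.8 in SP2509 replicates 1 to 5 and 133 in replicate 6, against 40.8 to 101 in vehicle. Ppargc1a, its coactivator, was at 195 to 282 in SP2509 replicates 1 to 5 and 843 in replicate 6, against 206 to 457 in vehicle. Esrra, estrogen-related receptor alpha, was at -0.35 ± 0.19 over 10 libraries, and without replicate 6 it fell by 0.49 (limma adjusted p = 0.0135, 0.0685 with the pairs averaged). Pdk4, the pyruvate dehydrogenase kinase induced by fasting, was at 358 to 640.4 in SP2509 replicates 1 to 5, 3252 in replicate 6 and 236 to 1795 in vehicle, with a fold change of 0.17 ± 0.64 (limma adjusted p = 0.891). Without replicate 6, 2 of the 21 were higher (Nrip1 and Ucp2) and 3 lower (Ppargc1b, Esrra and Sirt3), beside 11.5% higher and 8.71% lower of all tested genes. With the pairs averaged as well, Nrip1 and Ucp2 were higher and 0 lower, beside 4.5% and 3.33% of all tested genes.

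Per kilobase of merged exon, Mdh1 and Mdh2 were the most abundant members in both groups, with means of 2688 and 2278 normalised reads in SP2509 (n = 4 units) and 1276 and 1044 in vehicle (n = 4). The SP2509 means include replicate 6, and the medians of SP2509 replicates 1 to 5 were 1761 for Mdh1 and 1668 for Mdh2. Their neighbour Acaa2 had 1726 in SP2509 and 991 in vehicle. At the low end stood Etfdh (102 in SP2509 and 45.2 in vehicle), Slc25a20 (95.5 in SP2509 and 67.9 in vehicle) and Cpt1a (59.4 in SP2509 and 59.99 in vehicle). The medians of SP2509 replicates 1 to 5 were 60.4, 75.0 and 54.5 for these 3 genes. Cpt1b, Acadvl and Etfb are left out of this order because other genes cover part of their exons. Merged exons take in those of every annotated transcript, so the order depends on these lengths. Etfdh (7505 bases) and Acads (2269 bases) had vehicle means of 339 and 333 normalised reads before the division by length.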

How the data were processed

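Per the labels' protocols, TRIzol-extracted tongue RNA was column-purified, poly-A selected with beads and copied from random primers. HISAT2, featureCounts and mm10 are named in the submitters' processing notes. Their versions, the annotation release, the strand setting and the scaling tool were not given in the sources used here. Each value the authors deposited is a signal per gene: its read count divided by 1 size factor per library, as the values show. Divided by the smallest value above 0 of its library, 100% of values came out whole to within 0.01. IDs were matched to symbols for 27113 of 27151 genes, and coordinates and merged exon lengths are from GENCODE M21 on GRCm38, the build of mm10.

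limma (3.58.1, R 4.3.3) was fitted to log2(value + 1) with its trend and robust options, two-sided and without covariates. It used all 10 libraries and the 17088 genes that reached 10 in 4 or more libraries. This scale understates the change of low genes. Adjusted p-values are Benjamini-Hochberg over all tested genes, with a threshold of 0.05. edgeR (4.0.16) and DESeq2 (1.42.0) were run on the recovered whole reads. edgeR called 912 genes higher and 585 lower, against 846 and 709 in limma, and limma called 1287 and 572 with TMM scaling and 666 and 1060 with quantile normalization. Other alternatives were the pseudocount, filter, scaling, library weights, a replicate block, marker covariates and libraries left out or averaged. Leaving out replicate 6 together with another change was chosen after seeing the data.

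Members, lists and tests were chosen with earlier results of these data known. Values in every library are given for 8 members whatever their values (Cs, Idh3a, Ogdh, Cpt1a, Cpt1b, Cpt2, Acadvl and Hadha), for called members and for the 4 with the smallest p, and for others (Acsl1, Acadl, Etfa, Etfb, Slc22a5, Cpt1c and Nrip1) chosen after their values were seen. Replicate numbers were not used to pair libraries. The labels count 4 and 6 mice but do not tie each library to its own mouse, and p-values measure the spread between libraries, which may be technical in part. Protein identities between members were not computed, and values of some genes of the further lists are not reported here. The main limma fit over 10 libraries was tested on simulated counts, drawn without close pairs or a library that stands apart. The other fits were not tested in this way. Figures were drawn with matplotlib 3.10.9 (Python 3.11.15).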

Additional observations from a re-analysis of the deposited data

Results flagged for a closer look

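In each group of libraries, the gap between the most extreme library and its nearest neighbour was divided by the range of the group. This was done for 33 members in 2 groups, which makes 66 checks. Chance would pass about 1 in 20 where the libraries of a group are independent, which the close pairs of SP2509 put in doubt. The critical value is 0.625 for 6 libraries and 0.829 for 4. SP2509 replicate 6 exceeded it in 31 members, each time as the highest library. These 31 are 1 library seen over many genes, so they are not separate results. The share of all tested genes that exceeded it is not given here. Replicate 6 lay above every other library in 21.1% of all tested genes, whatever the gap. Among the cycle genes the ratio was 0.925 for Cs, 0.953 for Idh2, 0.939 for Idh3a, 0.953 for Idh3b, 0.93 for Idh3g, 0.92 for Ogdh, 0.848 for Dlst, 0.918 for Dld, 0.905 for Suclg1, 0.642 for Suclg2, 0.921 for Sucla2, 0.972 for Fh1, 0.911 for Mdh1 and 0.908 for Mdh2. Among the oxidation genes it was 0.816 for Cpt1b, 0.916 for Cpt2, 0.796 for Slc25a20, 0.939 for Acadl, 0.938 for Acadm, 0.824 for Acads, 0.84 for Acadvl, 0.9 for Hadha, 0.95 for Hadhb, 0.778 for Hadh, 0.911 for Echs1, 0.832 for Acaa2, 0.909 for Etfa, 0.9 for Etfdh, 0.956 for Eci1, 0.948 for Decr1 and 0.946 for Acsl1. The 2 members without it in SP2509 were Cpt1a, lowest in replicate 6, and Etfb. In vehicle, 1 member passed: Acadvl, where replicate 2 at 779 normalised reads stood above the other 3 libraries with a ratio of 0.847. The values of marker genes in replicate 6 are given with the results, and their part in these gaps was not tested.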

How the results depend on the processing

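Counts below are given as higher and lower. With pseudocounts of 0.5 and 5, the stricter filter and quantile normalization, the members called stayed at 2 and 0. No filter gave 1 and 0, limma without trend or robust 1 and 0, library weights 12 and 1, the pairs averaged 0 and 0, SP2509 replicates 4 and 5 left out 0 and 0, vehicle replicates 1 and 2 left out 0 and 0, the fast muscle covariate 0 and 1, the keratinocyte covariate 22 and 0, edgeR 1 and 0 and DESeq2 6 and 0. TMM scaling gave 3 and 0. A threshold of 0.1 gave 4 and 0, and one of 0.01 gave 0 and 0. Chosen after seeing the data, replicate 6 left out gave 1 and 1 with the pairs averaged, 4 and 2 with vehicle replicate 1 also left out and 2 and 1 with the fast muscle covariate. Leaving out 1 library moved the members called higher between 0 and 8 and those called lower between 0 and 2, with the highest of both without SP2509 replicate 6.

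Over all genes, leaving out 1 library moved the count higher between 171 and 1971 and the count lower between 107 and 1488 (846 and 709 over 10 libraries). No filter gave 553 and 479, TMM 1287 and 572, quantile normalization 666 and 1060, limma without trend or robust 490 and 481, library weights 2381 and 1778, the pairs averaged 0 and 0 (limma, with 3632 below an unadjusted p of 0.05), SP2509 replicates 4 and 5 left out 219 and 156, vehicle replicates 1 and 2 left out 0 and 0 (3431 at an unadjusted p under 0.05), the keratinocyte covariate 1546 and 1079, DESeq2 1606 and 1394, vehicle replicate 1 and SP2509 replicate 6 left out 1477 and 1034, a threshold of 0.1 1713 and 1388, and one of 0.01 2 and 0. The median log2 fold change of the cycle genes was 0.0892 with the fast muscle covariate, and that of the oxidation genes -0.0204.

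Same-numbered libraries of the groups had correlations of deviations of -0.198 to 0.126 over 4 pairs, so the numbers were not taken as pairs. The replicate block gave 6 and 1 members and 1125 and 769 genes, and reversed Idh3g (-0.0206), Dlst (-0.0571), Cpt2 (-0.0306) and Acadm (-0.28). SP2509 replicates 5 and 6 have no vehicle library of their number, so they do not enter the fold changes of that fit. It is thus also a fit without replicate 6, where the same genes changed sign. None of the members that changed sign was called over 10 libraries. They were, as log2 fold changes, Dlst -0.00970, Cpt1a -0.0452 and Acadm -0.11 with quantile normalization. With TMM scaling it was Acadvl 0.00766. With library weights it was Acadm -0.15. With the pairs averaged they were Cpt1a -0.0588 and Acadvl 0.11. With SP2509 replicates 4 and 5 left out it was Acadvl 0.29. With vehicle replicates 1 and 2 left out it was Acadvl 0.0836. With the fast muscle covariate they were Idh3b -0.0317, Idh3g -0.22, Ogdh -0.0593, Dlst -0.18, Dld -0.0533, Cpt2 -0.35, Slc25a20 -0.20, Acadm -0.60, Hadha -0.17, Eci1 -0.0204 and Decr1 -0.0517. With the keratinocyte covariate they were Cpt1a -0.25, Acadvl 0.47 and Acsl1 0.0307. With edgeR it was Acadvl 0.29. With DESeq2 it was Acadvl 0.25. With the pairs averaged and replicate 6 left out they were Idh3g -0.0134, Dlst -0.0523, Cpt2 -0.0339 and Acadm -0.30. With the fast muscle covariate and replicate 6 left out they were Idh3g -0.14, Dlst -0.0848, Cpt2 -0.26, Slc25a20 -0.12, Acadm -0.44 and Hadha -0.0470. Leaving out 1 library, or vehicle replicate 1 together with SP2509 replicate 6, moved Idh3g between -0.0868 and 0.23, Dlst between -0.0843 and 0.15, Cpt1a between -0.0863 and 0.14, Cpt2 between -0.20 and 0.32, Slc25a20 between -0.0236 and 0.49, Acadm between -0.37 and 0.12 and Acadvl between -0.43 and 0.0978. The cause of these changes was not tested. Over all alternatives, the fold change of a single member kept its direction and call in 818 cases, gained a call in 56, lost one in 25 and changed sign in 58.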
